A study of Mus musculus with 13 samples.

Results

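Conventional type 2 dendritic cells (cDC2) of mouse liver were split by the number of Mgl2 molecules counted in each cell, and cells with Mgl2 were compared with cells without it inside the same library. Cells were taken as barcodes with at least 1500 unique molecular identifiers (UMIs, the counted RNA molecules), and cDC2 were gated on raw UMIs, with at least 2 of Cd209a, at least 5 of H2-Ab1, 0 of Xcr1 plus Clec9a, at most 1 of Siglech, at most 1 of Fscn1 and at most 3 of C1qa, C1qb and C1qc together. Of 95563 cells, 3915 (4.10%) passed the gate. Among these, 964 (24.6%) had at least 2 Mgl2 UMIs and are called Mgl2-positive, 2743 (70.1%) had 0 and are called Mgl2-negative, and 208 (5.31%) had exactly 1 and entered neither class. Both classes were chosen on measured values, so the levels of Mgl2 and of the other genes of the gate describe the selection and are not tested. The comparison used those 10 libraries in which both classes had 20 cells or more, with 943 positive cells (20 to 352 per library) and 2704 negative cells (71 to 718 per library).

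The cells came from C57BL/6J mice, male by the methods of the study, fed chow containing DDC (3,5-diethoxycarbonyl-1,4-dihydrocollidine), which injures bile ducts, at 0.1%, and were profiled by droplet-based 10x 3′ sequencing at day 0 (D0, no DDC, steady state), days 3 and 5 (D3 and D5, onset) and days 9, 19 and 25 (D9, D19 and D25, progression). At each time point 1 library was made by isolation protocol A, which pooled sorted Epcam+, Pdpn+, Lyve-1+, Cd31+ Lyve-1-, Cd45+, retinoid-autofluorescent and unselected live single cells, and 1 by protocol B, which pooled Cd45+ Itgax+ Cd64- cells, Cd3e+ Lyve-1- cells, Epcam+ cells and live cells of a stellate cell preparation. A further library, STOP, came from mice given DDC for 18 days followed by 7 days of recovery and was made by protocol B. The libraries D0 A, D19 A and D25 A held too few gated cells and were not compared, 1 label of the library D19 B gives day 18, and protocol A libraries were made with the Single Index kit and protocol B libraries with the Dual Index kit. The labels do not say which mice went into which library, so libraries need not be separate animals and p-values measure only the spread between libraries.

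cDC2 take up antigen in tissue and present it on MHC class II to CD4+ T cells, and they arise from bone marrow precursors that depend on the receptor Flt3. Mgl2 encodes CD301b, a C-type lectin that binds galactose-type sugars and marks a subset of cDC2 that is best known for skin and lymph node, where it takes part in type 2 immune responses. Its neighbour Clec10a encodes the closely related lectin CD301a.

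Total UMIs ranged from 29307190 to 108602421 per library, and the summed counts per library held 199227 to 3649244 UMIs for the positive and 557091 to 6180351 for the negative class. In T-like cells of the same libraries, which were chosen to hold no Cd209a UMI and should lack Mgl2, 26 of 9799 cells (0.265%) had at least 2 Mgl2 UMIs. The median depth of the T-like cells was 2290 to 7813 UMIs per cell against 5132 to 17060 in gated cells. Of all barcodes in the gate, 1 occurred in more than 1 library.

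The share of positive cells differed widely between libraries. It was highest in D0 B, with 228 of 594 gated cells (38.4%, exact 95% interval 34.5 to 42.4), and lowest among the compared libraries in STOP, with 20 of 260 (7.69%, interval 4.76 to 11.6). D9 A (33.6%), D5 B (30.9%), D5 A (25.1%), D3 A (23.3%) and D9 B (22.3%) lay between, followed by D3 B (14.2%), D25 B (13.6%) and D19 B (9.38%). These intervals cover counting error only, and each point of the time course rests on 1 library per protocol, so no test of a time trend was made. When every gated cell was thinned to 1500 UMIs and counted as positive at 1 UMI or more, the share was 32.0% in D0 B and 4.23% in STOP, against 0.253% and 0.127% in their T-like cells. At the threshold, 135 cells had exactly 2 UMIs and 208 had 1, whereas 576 of the 964 positive cells had 6 or more, and the median positive cell had 7.

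**Figure D1:**
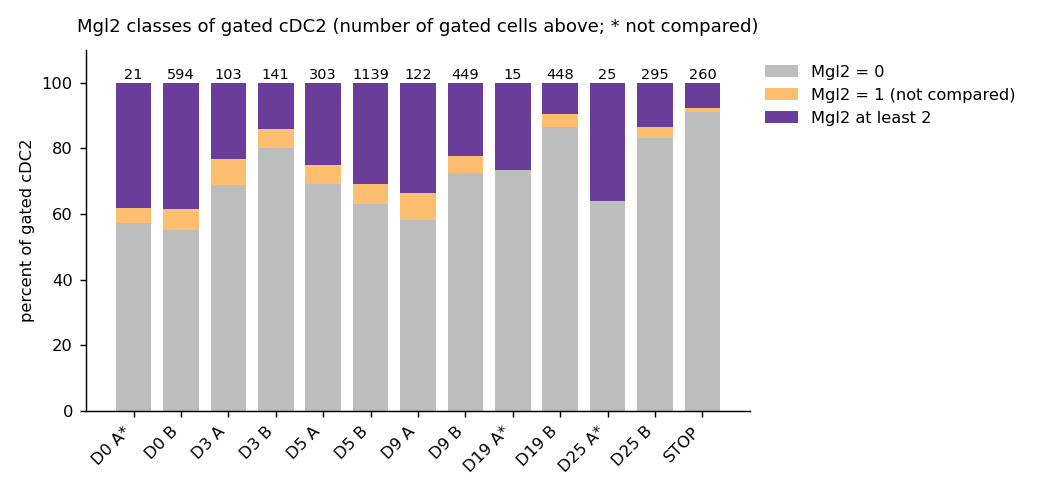
Percent of gated cDC2 (y axis) with 0, exactly 1 or at least 2 Mgl2 UMIs in each of the 13 libraries (x axis), with the number of gated cells above each bar and an asterisk for the 3 libraries that were not compared. The share with at least 2 UMIs is 38.4% in D0 B and 7.69% in STOP.

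The gate held 47.4% of the 21517 Mgl2 UMIs found in all cells, and 964 of the 2291 cells with at least 2 Mgl2 UMIs (42.1%). Of the 2291, 859 missed the gate with fewer than 2 Cd209a UMIs, 578 with more than 3 C1q UMIs and 459 with a UMI of Xcr1 or Clec9a, and 340 failed on Cd209a alone. The comparison therefore covers the Mgl2-positive cells that pass every criterion of the gate and not every cell with Mgl2.

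Positive cells were deeper, which the selection itself favours, because a cell with more UMIs is more likely to reach 2 of Mgl2 and less likely to stay at 0. The difference is therefore a description with no test. The median cell of the positive class had 5495 UMIs in D0 B against 4884 in the negative class, and 22231 against 16650 in D3 B. The within-library difference of median log2 UMIs was 0.19 (SD 0.114, n = 10 libraries), positive cells being deeper in 9 of 10 libraries, with D3 A as the exception. The median percent of mitochondrial UMIs ranged from 0.538 to 3.56 in positive and from 0.556 to 3.42 in negative cells.

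The cDC2 label was checked against the markers Itgax, Sirpa, Itgam, Irf4, Zbtb46 and Flt3. As UMIs per 1000000 of the summed class (CPM, with library sizes that include the gate genes, scaled by TMM factors), all of them were detected in both classes of every compared library. Sirpa, a receptor of cDC2, had a median of 121 CPM in the positive and 108 in the negative class, and Zbtb46, a transcription factor of conventional DC, 39.3 and 43.4. Itgam was low, with medians of 10.7 and 8.22 CPM. Neither class lacked the cDC2 markers, but detection in summed counts, with no other cell type set beside it, does not settle the label.

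Across genes, 258 of 10140 tested genes (2.54%) differed between the classes in edgeR's quasi-likelihood test with the library as a block and a Benjamini-Hochberg adjusted p under 0.05. Of these, 142 (1.4% of the tested genes) were higher and 116 (1.14%) lower in positive cells. The median log2 fold change over all tested genes was -0.01. Both shares and this median are the background for every count of list members below. Scaled by library size alone, 122 genes were higher and 154 lower, and with classes matched on depth, in the 9 libraries that allowed it, 143 were higher and 41 lower. In 56 of the genes called higher and 57 of those called lower, all 10 libraries showed the same sign, and in none of the 258 did the ranges of the classes over libraries separate completely. Most differences were small, as 49 called genes differed by at least 2-fold, 31 of them higher and 18 lower. In simulated data, 10.6% of the calls of this fit were false.

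The genes highest in positive cells by the rule for named genes (largest fold, same sign in all libraries, mean log2 CPM of at least 5) were led by receptors for dying cells and antibodies. Axl, a receptor tyrosine kinase of the TAM family that recognizes phosphatidylserine through Gas6, ranged from 27.0 CPM (STOP) over a median of 85.7 to 138 (D9 A) in positive cells, and from 8.12 (D25 B) over 30.2 to 56.6 (D9 A) in negative cells. It was higher in positive cells in 10 of 10 libraries, by a log2 fold change of 1.68 (SE 0.20, edgeR adjusted p = 4.65e-05). The ranges overlapped, as the negative cells of D9 A had more Axl than the positive cells of D0 B, D19 B and STOP, and within a library the gap was narrowest in D0 B (log2 ratio 0.39) and widest in D25 B (3.20).

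Fcgr3, which encodes the activating Fc receptor CD16, had 31.5 to 107 CPM (median 63.1) in positive and 5.78 to 40.7 CPM (median 18.2) in negative cells. The fold was 2.94 (log2 1.56, SE 0.16, edgeR adjusted p = 9.58e-06), again in 10 of 10 libraries. The negative sum of D3 A was the lowest and gave the widest gap. Of the 19 tested members of the list of Fc receptors, complement and scavenging genes, 2 rose (Axl and Fcgr3) and 0 fell. Over all tested genes 1.4% were called higher and 1.14% lower. The list's median log2 fold change was 0.19 against -0.01 over all genes. The inhibitory receptor Fcgr2b had a log2 fold change of 0.42 with an adjusted p of 0.0563 in edgeR and was not called.

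The other named genes of this direction fell into several roles. Ms4a6d, a tetraspanning membrane protein of myeloid cells, rose by 1.37 on the log2 scale (SE 0.14), and the actin regulators Capg, Mtss1 and Actn1 by 1.34 (SE 0.18), 1.07 (SE 0.13) and 0.81 (SE 0.14). Myof, a membrane repair protein, rose by 1.20 and the invadopodia adaptor Sh3pxd2b by 0.92. Qpct, which cyclizes the amino terminus of peptides such as chemokines, rose by 0.98, the metallothionein Mt1 by 0.86, the transaminase Got1 by 0.83, the A20-binding inhibitor of NF-kB Tnip3 by 0.78, Mcemp1 by 0.77 and the lectin Clec4b1 by 0.72. Each of them was higher in 10 of 10 libraries, with edgeR adjusted p between 1.53e-06 (Tnip3) and 0.00219 (Actn1). In Mt1 the gap was widest at steady state, with a log2 ratio of 1.96 in D0 B and at most 0.91 elsewhere.

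**Figure D2:**
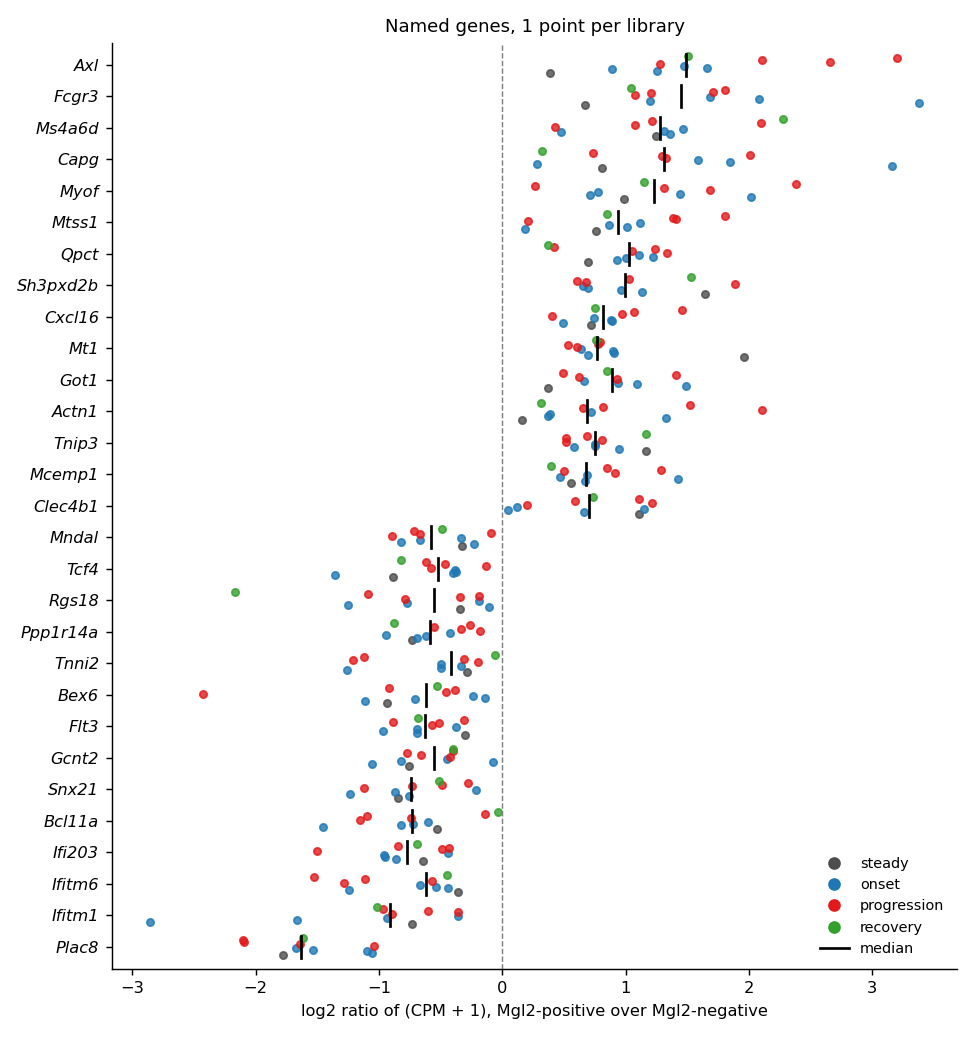
Log2 ratio of (CPM + 1) in Mgl2-positive over Mgl2-negative cDC2 (x axis) for the named genes (y axis), with 1 point per library coloured by stage and the median of 10 libraries as a bar. The genes were chosen to lie on one side of 0 in every library, and Fcgr3 in D3 A (3.38) and Mt1 in D0 B (1.96) lie far from the other points of their gene.

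Chemokines of the type 2 response had large folds. Ccl17, a ligand of Ccr4 that attracts T helper 2 and regulatory T cells, ranged from 1.90 CPM (D3 B) over a median of 257 to 1036 CPM (D5 B) in positive cells, and from 33.4 (STOP) over 57.4 to 201 (D5 B) in negative cells. It was higher in 8 of 10 libraries and lower in D3 A and D3 B, and its fold was 4.20 (log2 2.07, SE 0.41, edgeR adjusted p = 0.00663). DESeq2 gave a log2 fold change of 1.56 with an adjusted p of 0.222, so the call depends on the tool. Over all 26 alternative settings its adjusted p lay between 1.86e-105 and 0.576, the highest in the 3 libraries of protocol A. Positive cells held 70.5% of the Ccl17 UMIs of the compared cells, against 27.1% of all UMIs and 25.9% of the cells.

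Ccl22, the second ligand of Ccr4, had 34.2 to 402 CPM (median 140) in positive and 5.83 to 110 (median 40.3) in negative cells. It was higher in 9 of 10 libraries, by a log2 fold change of 1.91 (SE 0.21, edgeR adjusted p = 2.47e-05). In STOP the classes were nearly equal (log2 ratio -0.05), and the gap was widest in D19 B (4.29), where the negative cells had the lowest level. Cxcl16, the membrane-bound ligand of Cxcr6, ranged from 189 to 455 CPM in positive and from 112 to 322 in negative cells. It was higher in 10 of 10 libraries by 0.86 (SE 0.08, edgeR adjusted p = 5.8e-06).

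These 3 were the chemokines that rose among 15 tested, and 0 fell, where 1.4% of all tested genes were called higher and 1.14% lower. The median log2 fold change of the list was 0.04. Ccl5 (-0.78, edgeR adjusted p = 0.0701) and Ccl3 (-0.40) were not called. The list of type 2 and STAT6 response genes held 11 tested members, of which the same Ccl17 and Ccl22 rose and 0 fell. The receptor subunit Il4ra (-0.11, 95% interval -0.35 to 0.12) and Stat6 itself (0.03, interval -0.18 to 0.24) were not called, nor were the transcription factors Irf4 (0.15, interval -0.07 to 0.37) and Klf4 (-0.14, interval -0.33 to 0.05), which are known to be needed for CD301b+ cDC2.

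The 250 bases before the start of Ccl17 are shown because this gene had the largest fold among the called members of the lists and STAT6 is a known activator of it. The motif TTCNNNNGAA, which reads the same on both strands, was found once, 154 bases before the start (in capitals), and is present in 5.85% of the 32851 promoter windows of the same length. The sequence is from RefSeq on GRCm38.p6, plus strand, chr8:94810203-94810452, 5′ to 3′.

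Ccl17: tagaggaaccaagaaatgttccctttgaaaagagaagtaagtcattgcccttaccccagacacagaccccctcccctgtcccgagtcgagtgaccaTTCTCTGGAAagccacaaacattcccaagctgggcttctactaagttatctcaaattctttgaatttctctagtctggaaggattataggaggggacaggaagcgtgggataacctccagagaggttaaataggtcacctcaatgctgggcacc

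The windows before Ccl22, Axl and Mgl2 did not hold these letters, and of the 2 windows before Plac8, a gene lower in positive cells, 1 held a match 153 bases before the start. A match in a window is a description of the sequence, and binding was not measured here.

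C-type lectins are the family of Mgl2 itself. Of 20 tested members, 5 rose (Clec4n, Clec5a, Clec4b1, Cd302 and Clec7a) and 1 fell (Clec2i, whose call was lost in 15 of the 25 alternative settings that keep the block), with a median log2 fold change of 0.35, where 1.4% of all tested genes were called higher and 1.14% lower. Clec5a lost its call without cells holding markers of other lineages and without those holding a Ccr7 or Fscn1 UMI, Cd302 when thinned and in protocol A alone, and Clec7a and Clec4b1 in protocol A alone. Clec4n, which encodes the fungal mannan receptor dectin-2, ranged from 4.50 CPM (STOP) over 66.1 to 111 (D19 B) in positive and from 10.3 over 14.8 to 39.6 in negative cells. It was higher in 8 of 10 libraries, by a log2 fold change of 1.80 (SE 0.20, edgeR adjusted p = 2.47e-05), and its lowest log2 ratio was -1.17 in STOP.

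Clec5a, a spleen tyrosine kinase-coupled receptor, rose by 1.51 (SE 0.27) at low levels of at most 19.8 CPM, and Clec7a, the beta-glucan receptor dectin-1, by 0.54 (SE 0.08), both in 10 of 10 libraries. Clec4d (1.28, edgeR adjusted p = 0.0592) and Clec4a2 (0.45, 0.0658) were not called. Clec10a, the neighbour of Mgl2, had medians of 363 and 314 CPM in positive and negative cells and a log2 fold change of 0.22 (95% interval 0.00 to 0.44, edgeR adjusted p = 0.391). Counts of this pair are uncertain, because 419 stretches of 31 bases occur in transcripts of both genes, which is 20.9% of the stretches in the last 1000 bases of the transcripts of either gene, and how reads from them were assigned was not tested.

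**Figure D3:**
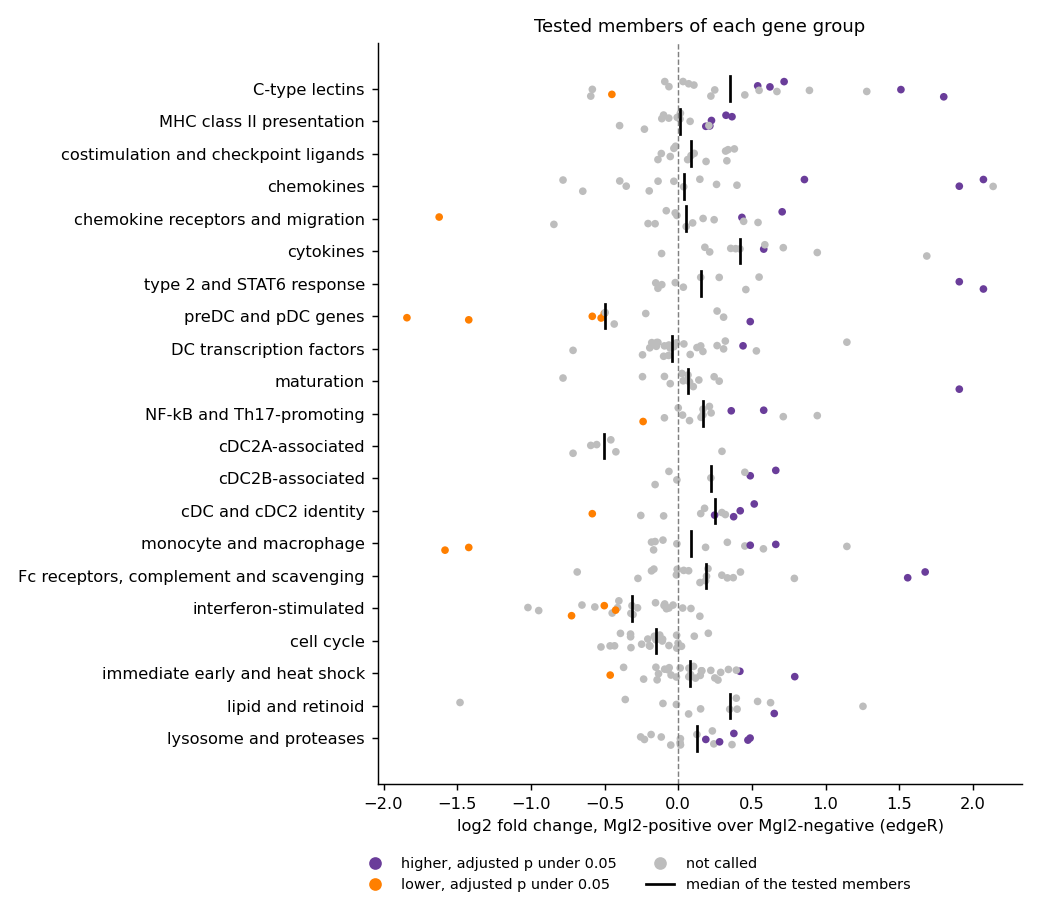
Log2 fold change between Mgl2-positive and Mgl2-negative cDC2 from edgeR (x axis) for each tested member of 21 gene groups (y axis), purple for higher and orange for lower at an adjusted p under 0.05, grey for not called, with the group median as a bar. The preDC and pDC group has 5 genes called lower and 1 called higher, and the C-type lectins 5 higher and 1 lower.

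Some MHC class II genes were slightly higher in positive cells. H2-Eb1, the beta chain of I-E, had 9135 to 20238 CPM (median 12138) in positive and 8835 to 15011 CPM (median 9609) in negative cells. It was higher in 10 of 10 libraries, by 0.32 on the log2 scale (SE 0.04, edgeR adjusted p = 4.65e-05), with the smallest gap in D3 B. H2-Ab1 belongs to the gate and was left out. Of the 15 tested members of the list, 5 rose (H2-Eb1, H2-Aa 0.21, the invariant chain Cd74 0.23, the peptide editor subunit H2-DMb2 0.36 and the protease Ctss 0.19) and 0 fell, while the list's median was 0.01. Over all tested genes 1.4% were called higher and 1.14% lower. Without cells holding a Ccr7 or Fscn1 UMI, the calls of H2-Aa, Cd74, H2-DMb2 and Ctss were lost and that of H2-Eb1 was kept.

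Some lysosomal genes were also higher, with 5 of 17 tested members higher and 0 lower (median 0.13). Cst3, the protease inhibitor cystatin C, rose by 0.49 (SE 0.07) in 9 of 10 libraries, Psap, the saposin precursor, by 0.47 and the dipeptidyl peptidase Ctsc by 0.38. Lipa, the lysosomal acid lipase, was the 1 called gene of 13 tested in the lipid and retinoid list, at 0.65 (SE 0.13). The call of Ctss was lost in 16, that of H2-DMb2 in 8 and that of Ctsc in 4 of the 25 alternative settings that keep the block, and Lipa lost its call when thinned and in protocol A alone.

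Costimulatory and checkpoint genes were not called in either direction. Of 13 tested members 0 passed the test, with a median log2 fold change of 0.09. Cd86 had 49.5 to 223 CPM (median 178) in positive and 46.8 to 180 (median 113) in negative cells, with a log2 fold change of 0.32 (95% interval 0.08 to 0.57, edgeR adjusted p = 0.212). It was lower in positive cells in STOP (log2 ratio -1.20), and without that library the fold change was 0.40 with an adjusted p of 0.0296 (0.0108 to 0.999996 over 26 alternative settings). Cd80 was at 0.19 (interval -0.06 to 0.44), Cd83 at 0.06 (interval -0.04 to 0.17) and Cd40 at -0.05 (interval -0.45 to 0.34). In the maturation list 1 of 14 tested members rose, again Ccl22, and the lymph node homing receptor Ccr7 was at 0.24 (interval -0.19 to 0.67). Ccr7 had a log2 ratio of 2.61 in D19 B, and its log2 fold change without that library was 0.04. The gate left cells with more than 1 UMI of Fscn1, a gene of mature DC, out of both classes, so these lists describe only the cells that remain.

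Il1b, the inflammatory cytokine, was the called member among 11 tested cytokines. It had 1309 to 6145 CPM (median 3827) in positive and 1099 to 5340 (median 2354) in negative cells and was higher in 10 of 10 libraries, by 0.58 (SE 0.09, edgeR adjusted p = 0.000543). The classes overlapped across libraries, since D3 B was lowest and D25 B highest in both. Without cells holding a UMI of Ccr7 or Fscn1, its log2 fold change was 0.51 with an adjusted p of 0.0636 (1.55e-28 to 0.957 over 26 alternative settings). Of 14 tested genes of NF-kB and Th17-promoting function, 2 rose (Il1b and the inhibitor Tnfaip3, 0.36) and 1 fell (Nfkb1, -0.24). The call of Nfkb1 was lost in 19 and that of Tnfaip3 in 13 of the 25 alternative settings that keep the block, for Nfkb1 in each fit without 1 library except those without D5 A or D9 A, and for Tnfaip3 in each except those without D3 B or D25 B.

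Among 15 tested chemokine receptors and migration genes, 2 rose, Ccrl2 (0.70) and Ccr1 (0.43), and 1 fell. The call of Ccr1 was lost in 5 of the 25 alternative settings that keep the block, among them the thinned cells. Ccr2, the receptor for monocyte chemoattractants, was at -0.01 (95% interval -0.26 to 0.24).

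Among the genes lower in positive cells was Plac8. This gene, which encodes a small cysteine-rich protein of early DC and monocytes, ranged from 158 CPM (D9 B) over a median of 261 to 530 (D3 B) in positive and from 391 (D9 A) over 933 to 1400 (D25 B) in negative cells. It was lower in 10 of 10 libraries, with a log2 fold change of -1.58 (SE 0.09, edgeR adjusted p = 9.14e-09). The ranges overlapped where the negative cells of D9 A and D9 B had less than the positive cells of D3 B. Positive cells held 9.03% of the Plac8 UMIs, against 27.1% of all UMIs. The call of Plac8 was kept under all 26 alternative settings tried, including the fit without the library as a block.

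Further named genes of this direction were Ifitm1 (-0.90), Ifitm6 (-0.78), Ifi203 (-0.73), Bcl11a (-0.69), Snx21 (-0.65), Gcnt2 (-0.60), Flt3 (-0.58), Bex6 (-0.58), Tnni2 (-0.57), Ppp1r14a (-0.57), Rgs18 (-0.56), Tcf4 (-0.52) and Mndal (-0.51), each lower in 10 of 10 libraries with an edgeR adjusted p of 0.0246 or less. Ifitm1 was low in both classes at steady state, at 45.1 and 75.7 CPM in D0 B. In the 25 alternative settings that keep the block, Rgs18 lost its call in 14 and Bex6 in 11, and without the block 5 of the 30 named genes kept theirs.

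Several genes of DC precursors and plasmacytoid DC (pDC) fell in positive cells. Of 11 tested members 5 fell and 1 rose, where 1.14% of all tested genes were called lower and 1.4% higher. The median log2 fold change was -0.50. Bst2 is among those that fell and is counted again in the interferon-stimulated list. The gate left cells with more than 1 UMI of Siglech, which the study lists among genes of DC precursors, out of both classes. This list therefore describes only the cells that remain. Flt3, the growth factor receptor of DC precursors, had 56.7 to 127 CPM (median 91.0) in positive and 70.1 to 187 CPM (median 132) in negative cells, a log2 fold change of -0.58 (SE 0.08, edgeR adjusted p = 0.00017) in 10 of 10 libraries with overlapping ranges. Tcf4, the transcription factor that sets pDC identity, was at -0.52 (SE 0.09). Bcl11a, which is outside the list and also acts in pDC development, was at -0.69 (SE 0.11). Both lost the call when cells were thinned and when classes were matched on depth, at -0.45 and -0.39 for Tcf4 and -0.58 and -0.49 for Bcl11a, and Tcf4 also without cells holding a Ly6c2 UMI (-0.40).

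Ly6c2, a surface protein of monocytes and of some DC precursors, ranged from 0 CPM (D9 A) to 51.3 in positive and from 10.6 to 78.5 in negative cells (log2 -1.42, SE 0.24, edgeR adjusted p = 0.00154), lower in 9 of 10 libraries and higher in D3 A. Cd7 was at a median of 0.29 CPM in positive and 6.34 in negative cells and lower in 10 of 10 libraries, with 5 positive sums at 0 (log2 -1.84, SE 0.36, edgeR adjusted p = 0.00576). The member that rose was Csf1r, the receptor of macrophage colony-stimulating factor (0.49, SE 0.08, 10 of 10 libraries), whose call was lost when cells were thinned (0.40) and in protocol A alone, and kept in classes matched on depth (0.57). Summed over the list, the level was lower in positive cells in 8 of 10 libraries, the exceptions being D3 A and D9 A.

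Of 23 tested interferon-stimulated genes 3 fell (Bst2, Irf7 and Ifitm3) and 0 rose, where 1.14% of all tested genes were called lower and 1.4% higher, 20 had a negative sign, and the median was -0.31. Bst2, which tethers budding virus and is a marker of pDC, had 152 to 366 CPM (median 204) in positive and 205 to 604 CPM (median 277) in negative cells. It was lower in 10 of 10 libraries, by a log2 fold change of -0.50 (SE 0.06, edgeR adjusted p = 5.68e-05), and D0 B was highest in both classes. When cells with a Ly6c2 UMI were left out, it was at -0.26 with an adjusted p of 0.0592 (5.85e-11 to 0.737 over 26 alternative settings).

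The master regulator Irf7 was at -0.72 (SE 0.18, edgeR adjusted p = 0.0301), lower in 9 of 10 libraries. Its call was lost in 10 of the 25 alternative settings that keep the block, among them DESeq2 and the fits without D0 B, D5 A, D9 A, D9 B, D19 B or D25 B. Ifitm3 was at -0.43 (SE 0.07, edgeR adjusted p = 0.000699) and lost its call in classes matched on depth and in protocol A alone. Isg15 (-0.15, 95% interval -0.42 to 0.11) was not called. The named genes Ifi203 and Mndal belong to the interferon-inducible p200 family, and Ifitm1 and Ifitm6 to the same family as Ifitm3. The 250 bases before Bst2 are shown because it was lower in all 10 libraries and is a known interferon target. The motif GAAANNGAAA, searched on both strands, occurred there as 2 overlapping matches starting 130 and 124 bases before the start (in capitals). It is present in 2.98% of the promoter windows. The sequence is from RefSeq on GRCm38.p6, minus strand, chr8:71537473-71537722, 5′ to 3′.

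Bst2: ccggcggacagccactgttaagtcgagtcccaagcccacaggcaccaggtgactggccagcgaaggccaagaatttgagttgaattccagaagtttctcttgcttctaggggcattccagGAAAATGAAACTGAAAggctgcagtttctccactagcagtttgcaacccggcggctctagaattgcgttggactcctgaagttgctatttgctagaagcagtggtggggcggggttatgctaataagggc

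The windows before Irf7 and Ifitm3 did not hold these letters.

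Lists of cDC2 subsets and states were counted in the same way. In the cDC2B list, which is linked to inflammatory, Clec10a-expressing cDC2, 2 of 7 tested members rose, Cd14 (0.66, SE 0.10) and Csf1r. In the cDC2A list, linked to T-bet-expressing cDC2, 0 of 6 tested members passed the test, with a median of -0.51, and Tbx21 was at -0.71 (95% interval -1.33 to -0.10, edgeR adjusted p = 0.287) and Esam at -0.42 (interval -0.94 to 0.09). Of 11 tested genes of cDC and cDC2 identity, Itgax (0.42, SE 0.08), Cd24a (0.52), Csf2rb (0.38) and Csf2ra (0.25) rose and Flt3 fell. The call of Csf2ra was lost in 19, that of Csf2rb in 10 and that of Cd24a in 8 of the 25 alternative settings that keep the block, for Csf2ra in each fit without 1 library except that without D9 A, and for Csf2rb without D5 B or D19 B. Itgax lost its call when thinned and in either protocol alone. Of 26 tested DC transcription factors 1 rose, the inhibitor of E proteins Id2 (0.44, SE 0.10), and the median was -0.04. The call of Id2 was lost in 5 of the 25 alternative settings that keep the block, among them the thinned cells.

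Among 14 tested monocyte and macrophage genes 2 rose (Cd14 and Csf1r) and 2 fell (Ly6c2 and Plac8). Of 28 tested immediate early and heat shock genes, which respond to tissue dissociation, 2 rose (Egr1 0.42 and Egr2 0.79) and 1 fell (Dnajb1 -0.46), with a median of 0.08. Egr1 was at -0.01 in the libraries of protocol A and at 0.12 in classes matched on depth. Its call was lost in 15 and that of Dnajb1 in 16 of the 25 alternative settings that keep the block, among them 6 fits without 1 library each, and Egr2 lost its call when thinned and in protocol A alone. Of 25 tested cell cycle genes 0 passed the test, 22 had a negative sign, the median was -0.15 and Mki67 was at -0.21 (95% interval -0.66 to 0.25). Summed over this list, the level was higher in positive cells in 5 of 10 libraries (D5 B, D9 A, D19 B, D25 B and STOP).

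Markers of other cell types were measured in the same sums. In the cDC1 list, all 6 tested genes had a positive sign, 0 was called, and the summed level was higher in positive cells in 10 of 10 libraries (median 272 against 227 CPM), while Xcr1 and Clec9a were at 0 by the gate. In the cholangiocyte list, all 5 tested genes had a positive sign (median 0.54) and 0 was called, with a median summed level of 1340 against 881 CPM, higher in 6 of 10 libraries, and Epcam was at 0.65 with an edgeR adjusted p of 0.0768. In the hepatocyte list, all 5 tested genes had a positive sign (median 0.55) and the summed level was higher in 7 of 10 libraries.

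Of the T cell, B cell, NK cell, neutrophil, Kupffer cell, sinusoidal endothelium and stellate cell lists 0 genes were called, and in the pDC list Bst2 was. Summed over the pDC list, the level was higher in positive cells in 1 of 10 libraries (median 217 against 323 CPM). The summed T cell level ranged from 0 to 1008 CPM in positive and from 1.17 to 674 CPM in negative cells. The part of these other cell types in the results was not tested. Without cells holding a UMI of Cd3e, Cd79a, Klrb1c, S100a8, Clec4f, Stab2 or Epcam, which left 6 libraries with enough cells, 194 genes were called, and 27 of the 30 named genes kept their call.

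The classes differed in depth, and the differences were measured again with cells thinned or classes matched on depth. Thinning kept the classes as set on the full Mgl2 counts, so the selection of deeper cells stayed in that setting. With every cell thinned to 1500 UMIs, 4021 genes were tested and 106 called, and the 21 of the 30 named genes that kept their call included Axl (log2 1.19) and Plac8 (-1.70). With classes matched on UMIs within 9 libraries, 184 genes were called and 23 of the 30 named genes kept their call. Ccl17 was at 2.25 when thinned and at 2.88 when matched, and Bst2 at -0.66 and -0.35.

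Levels were also followed over the number of Mgl2 UMIs in a cell, with the UMIs observed in a bin divided by those expected from the Mgl2-negative cells of the same libraries. The bins held 207 cells with 1 UMI, 133 with 2, 246 with 3 to 5 and 564 with 6 or more. Intervals cover the counting error of the observed UMIs only and leave out that of the expected UMIs. Bins of 2 and more hold the positive cells themselves, and all bins are set against the negative cells of the comparison, so these ratios are a description and not independent of it.

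Ccl17 was at 2.86 times the expected level with 1 Mgl2 UMI (95% interval 2.63 to 3.10), at 3.78 with 2 and at 6.15 with 6 or more. Plac8 was at 0.759 (interval 0.716 to 0.803), 0.585 and 0.223 in the same bins. Cells with 1 UMI thus lay between the classes in both genes. Clec10a was at 1.24 with 1 UMI and at 0.910 with 6 or more. Pooled over the compared libraries, the median depth was 8593 UMIs with 1 Mgl2 UMI, 8276 with 2, 7962 with 3 to 5 and 10057 with 6 or more, against 8567 in negative cells. These medians mix libraries of unlike depth, and within libraries positive cells were deeper in 9 of 10.

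**Figure D4:**
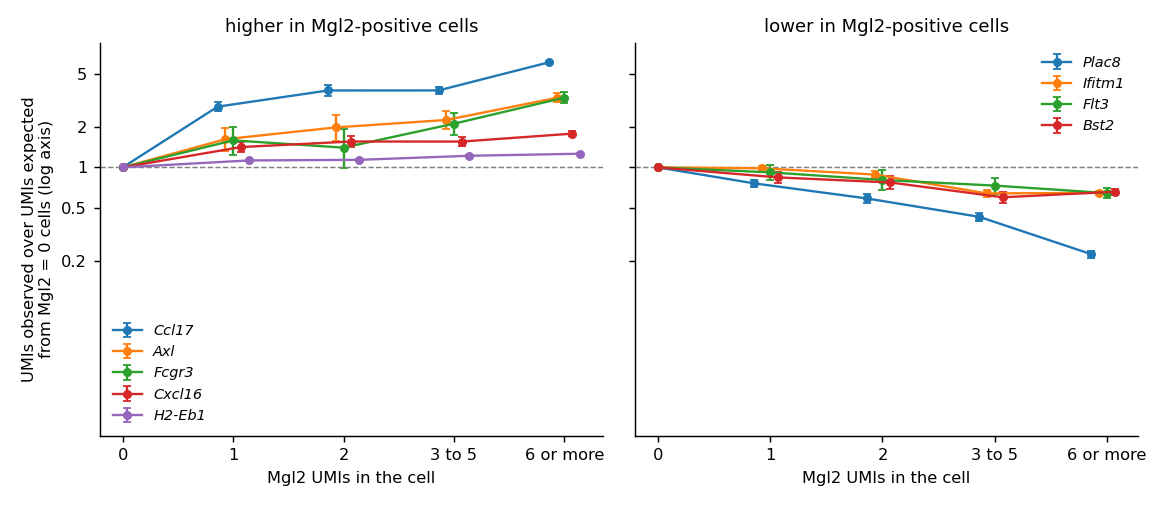
UMIs observed divided by UMIs expected from Mgl2-negative cells of the same libraries (y axis, log scale) against the number of Mgl2 UMIs in the cell (x axis), for 5 genes higher (left) and 4 lower (right) in Mgl2-positive cells, with exact Poisson 95% intervals of the observed UMIs as bars and Mgl2-negative cells at 1 by construction. Ccl17 reaches 6.15 and Plac8 0.223 in cells with 6 or more Mgl2 UMIs.

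The 3 libraries left out of the comparison, D0 A, D19 A and D25 A, held 21 positive and 39 negative cells and had no part in choosing the named genes. In their positive cells, 12 of the 15 genes named as higher and 15 of the 15 named as lower lay on the same side of the level expected from the negative cells, with median ratios of 1.75 and 0.525. The whole interval lay on that side for 9 of the 15 genes in each direction. Mtss1 (0.780), Mcemp1 (0.909) and Actn1 (0.960) lay on the other side. The share of all genes on each side was not counted. Ccl17 had 83 UMIs against 5.34 expected (ratio 15.5, exact Poisson 95% interval 12.4 to 19.3), and Plac8 25 against 246 (ratio 0.102, interval 0.0659 to 0.150). These intervals cover the counting error of the observed UMIs only and are too narrow. The expected Ccl17 level rests on 10 UMIs in the negative cells of these 3 libraries. Some genes called higher outside the named genes were not above the expected level there, among them H2-Eb1 (ratio 0.993), Cd74 (0.984), Cst3 (0.918) and Csf1r (0.647). Others were above it, among them Ccl22 (5.06), Cd14 (1.79) and Il1b (1.33). With so few cells all of these are values of 3 libraries and no test was made.

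Whether the difference between the classes itself differed between stages was asked with 4 onset libraries (D3 and D5, both protocols) and 4 progression libraries (D9 A, D9 B, D19 B and D25 B). The interaction of class and stage was called for 0 of 9558 tested genes (0%) in edgeR. At an unadjusted p under 0.05 there were 366 genes, and DESeq2 called 0. None of the lists had a called member. In simulated data this fit recovered 74% of the genes changed by 2 on the log2 scale, and smaller changes were not simulated. Steady state and recovery have 1 compared library each and were not part of these stage fits. Their values are given as a description.

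Within Mgl2-positive cells, progression against onset, with isolation protocol as a term, gave 0 called of 6178 tested genes (0%) in edgeR, with 391 at an unadjusted p under 0.05. DESeq2 called 2, Cldn4 (log2 2.84) and S100a9 (7.39), which are named because the count is small. Within Mgl2-negative cells, 18 of 10547 genes (0.171%) were called, 17 lower (0.161%) and 1 higher (0.00948%) at progression. The higher gene was Hp, haptoglobin, a plasma protein of hepatocytes, at 2.96, named because it was the single one.

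The 5 genes that the rule names among those that fell in Mgl2-negative cells act in cell division and chromatin. Nusap1, a spindle protein, had 22.0 to 88.8 CPM (median 60.7) at onset and 1.77 to 15.9 CPM (median 4.31) at progression, a log2 fold change of -3.49 (SE 0.56, edgeR adjusted p = 0.0387) with no overlap of the 4 and 4 libraries. Top2a, the topoisomerase of dividing cells, fell from a median of 155 to 15.9 CPM (log2 -3.14, SE 0.51, edgeR adjusted p = 0.0403), also without overlap. H1f5, a linker histone, was at -3.12, the microtubule regulator Stmn1 at -2.19 and the condensin subunit Smc2 at -2.18. In the negative cells of D0 B (steady state) and STOP (recovery), Nusap1 was at 124 and 18.6 CPM and Top2a at 218 and 70.2 CPM.

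Of 25 tested cell cycle genes 4 fell (Nusap1, Top2a, Stmn1 and Rrm2) and 0 rose, with all 25 negative in sign and a median of -1.42 against 0.01 over all genes. Summed over the list, negative cells had 1978 to 4465 CPM at onset and 901 to 1363 CPM at progression. Outside the comparison they had 5360 CPM in D0 B and 1999 CPM in STOP, so the high level was not particular to onset. In Mgl2-positive cells, 0 of 21 tested cell cycle genes passed the test, all 21 were negative in sign and the median was -0.84. Nusap1 had medians of 19.1 CPM at onset and 9.07 at progression there (log2 -1.09, 95% interval -2.96 to 0.77). The interaction of the class with the stage was 1.80 for Nusap1 (interval -0.51 to 4.11), 2.22 for Top2a (0.36 to 4.08) and 1.65 for Smc2 (0.65 to 2.66), with an edgeR adjusted p of 0.99998 for each, so no difference between the classes in this fall was called. The 2 comparisons use different sums of the same libraries.

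**Figure D5:**
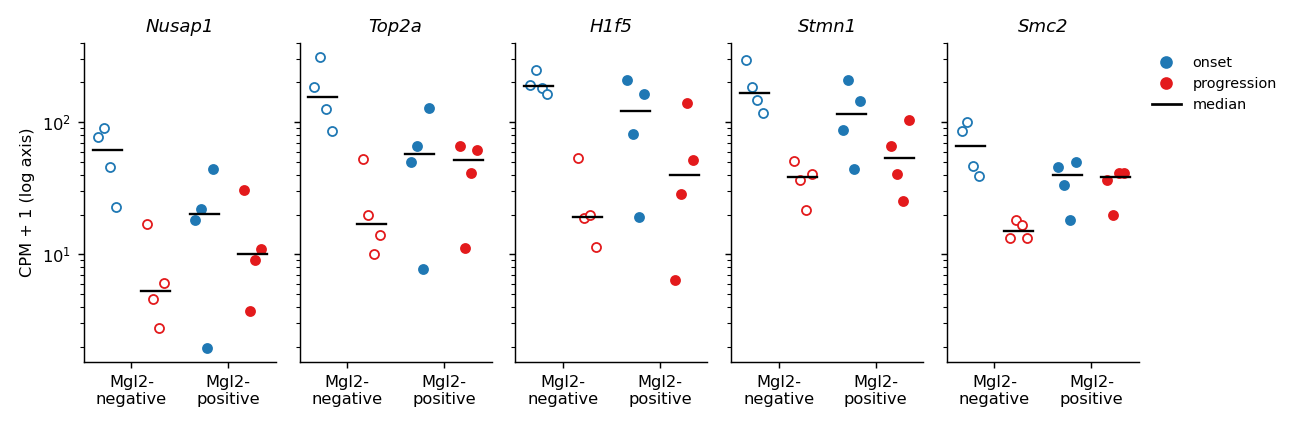
CPM + 1 (y axis, log scale) of the 5 named cell cycle and chromatin genes in Mgl2-negative (open) and Mgl2-positive (filled) cDC2, 1 point per library, blue for the 4 onset and red for the 4 progression libraries, with the median as a bar. Median Nusap1 falls from 60.7 to 4.31 CPM in negative cells and from 19.1 to 9.07 CPM in positive cells.

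The stage comparison in negative cells rests on single libraries. Leaving out D19 B or D9 B left 1 called gene, leaving out D25 B, D3 A or D3 B left 2, and leaving out D5 B gave 73. Between the stages, 0 markers of other cell types were called, but some of their list medians were far from 0. In negative cells the median log2 fold change was 4.98 over 3 tested neutrophil, 3.74 over 2 stellate cell and fibroblast, 1.76 over 5 hepatocyte, 1.64 over 5 cholangiocyte and 1.60 over 2 pDC markers. In positive cells it was 7.16 over 2 neutrophil, 1.68 over 2 pDC, 1.53 over 5 cholangiocyte and 1.44 over 3 hepatocyte markers. The other lists of other cell types with a tested member lay between -0.22 and 0.28 in negative and between -0.44 and 0.73 in positive cells. Their part in the result was not tested.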

How the data were processed

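A set of 13 droplet libraries of mouse liver cells was used, each with raw UMI counts per gene and barcode as deposited by the authors. The submitters' processing notes name kallisto and GRCm38, and the version of kallisto and the annotation are not given in the sources used here. Groups come from the sample labels. The members and the gene lists were chosen with earlier results of these data known.

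Cells were barcodes that reached 1500 UMIs, the gate was applied to raw counts, and the counts of each class were summed per library. The 10 genes of the gate were left out of the test and of the summed levels of the lists, because their counts chose the cells. Their UMIs stayed in the library sizes. CPM are UMIs per 1000000 of the summed class with TMM-scaled library sizes. Genes were filtered with filterByExpr and tested with edgeR 4.0.16 in R 4.3.3 by quasi-likelihood with Benjamini-Hochberg adjustment, with the library as a block because both classes come from the same library. Progression was compared with onset with isolation protocol as a term, and the interaction with the library as a block. DESeq2 1.42.0 was an alternative, and the other alternatives changed the filter, the scaling, the depth, the Mgl2 threshold, the cells kept and the libraries. Cell doublets were not called, and the alternatives without markers of other lineages and without cells above the 95th percentile of UMIs address them. Shares carry exact 95% binomial intervals (scipy 1.17.1), and T-like cells had at least 2 Cd3e UMIs and no Cd209a UMI. The fits were tested on simulated data, in which the share of false calls at the adjusted p threshold of 0.05 was above its nominal level in all 4 comparisons, most in the main one.

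Genes named in the main comparison were the 15 with the largest fold change in each direction among called genes whose mean log2 CPM reached 5 and whose sign was the same in every library, and the 5 per direction in the other comparisons. Predicted, mitochondrial, ribosomal and gate genes were left out, and members of the lists are named besides. Some genes that entered the counts are not reported here. Ratios per library use CPM plus 1. Promoter windows are the 250 bases before the start in RefSeq.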

Additional observations from a re-analysis of the deposited data

Results flagged for a closer look

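In 14 of 91 values that were examined for a library standing apart, 1 of the 10 libraries lay far from the others in the log2 ratio of positive over negative cells, and chance alone flags about 1 in 20 such values. All ratios below are of CPM + 1.

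D3 A stood apart in 4 genes. Fcgr3 was at 3.38 there and at 2.08 or less elsewhere, and its log2 fold change without D3 A was 1.48. Ifitm1 was at -2.85 (-0.79 without D3 A), Csf1r at 1.15 (0.42 without it) and Zbtb46, which was not called, at -1.21 (-0.05 without it). D3 A held 24 positive cells.

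D9 A, with 41 positive cells, stood apart in Ifi203 at -1.504 (-0.68 without D9 A) and in Bex6 at -2.43 (-0.52 without it). D3 B, with 20 positive cells, stood apart in Cd74 at -0.069 (0.25 without D3 B), in Tnfaip3 at -0.56 (0.42 without it) and in H2-Eb1 at 0.016 (0.35 without it). The calls of these 5 genes were kept without the library in question.

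D19 B stood apart in Ccl22 at 4.29, with a log2 fold change of 1.70 without it, and in Ccr7 at 2.61, where 0.04 remained without it. STOP, with 20 positive cells, stood apart in Cd86 at -1.20 and in Klf4 at -1.18. Without STOP, Cd86 was called (0.40) and Klf4 was at -0.07. D0 B, the steady state library, stood apart in Mt1 at 1.96, and the fold change without it was 0.74.

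The 3 libraries that were not compared also held positive cells. The limit given for each is the share that a count of 0 would allow, which 4 or more positive cells exceed by construction, so it is no test of the share. In D0 A 8 of 21 gated cells were positive (38.1%, limit 14.3%), in D19 A 4 of 15 (26.7%, limit 20%) and in D25 A 9 of 25 (36.0%, limit 12%).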

How the results depend on the processing

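The comparison of the classes called 258 genes, and 470 with no filter on low counts, 28 in the 3 libraries of protocol A alone, 106 when thinned to 1500 UMIs, 158 in the 4 libraries where both classes reached 50 cells, 151 without cells holding a Ly6c2 UMI and 129 without those holding a Ccr7 or Fscn1 UMI. Without the library as a block, 9 genes were called. Leaving out 1 library gave 159 to 254, with D9 B the library whose absence moved the count by more than 1.5 times. DESeq2 called 291, of which 240 were shared. The other alternatives gave 176 to 293. Of the 30 named genes, 10 kept their call in protocol A alone, 21 when thinned and 5 without the block, and none changed sign. Egr1 reversed to -0.0071 in protocol A alone. Single libraries also ended calls of named members: Egr1 without D0 B, D3 B, D9 B, D19 B, D25 B or STOP, Dnajb1 without D3 A, D3 B, D5 B, D9 A, D9 B or STOP, H2-DMb2 without D0 B, D5 B, D9 B, D19 B or STOP, Ctss without D0 B, D3 A, D5 A, D5 B, D9 B, D19 B or STOP, Clec2i without D3 B, D5 B, D9 B or D25 B, Rgs18 without D3 B, D5 A, D9 B or D25 B, and Bex6 without D0 B or D9 B. The difference in median log2 UMIs was 0.144 and 0.233 at Mgl2 thresholds of 1 and 3 and 0.165 to 0.213 without 1 library. The share of positive cells was 24.6%, 24.8% in cells of at least 3000 UMIs and 18.2% when thinned, where D3 B (7.09%) came below D19 B (7.14%) and D25 B (8.47%), and D3 A (14.6%) below D9 B (16.7%). The interaction with stage had 0 calls, and 69 with no filter, 2 where both classes reached 50 cells (3 libraries, with D9 B alone for progression) and 0 to 1 without 1 library (D5 B). Progression against onset had 0 calls in positive cells, and 2 in DESeq2, 140 with no filter and 0 to 2 without 1 library (D19 B). In negative cells it had 18, and 90 in DESeq2, 460 with no filter, 3 when thinned and 1 to 73 without 1 library (1 without D9 B or D19 B, 73 without D5 B). The cause of these changes was not tested. Libraries with 20 to 24 positive cells limit the levels of low genes, and fewer libraries or tested genes enter several alternatives.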

Other observations

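Several genes outside the named genes and the lists were also called between the classes, and they were picked after their values were seen. Dcstamp, a membrane protein needed for the fusion of myeloid cells, was at a log2 fold change of 3.55 (SE 0.52, edgeR adjusted p = 0.00041) and Mmp12, the macrophage elastase, at 2.74 (SE 0.32, edgeR adjusted p = 3.7e-05). The transcription factor Creb5 was at 1.83 (SE 0.20), the inhibitory receptor Pilra at 1.66 (SE 0.23), the guanine deaminase Gda at 1.60 (SE 0.21) and the phospholipid transfer protein Pltp at 1.58 (SE 0.16), all called higher in Mgl2-positive cells. Cd300c, an activating receptor of the CD300 family, was at -1.95 (SE 0.28, edgeR adjusted p = 0.000359) and Cd22, a sialic acid-binding receptor best known from B cells, at -1.88 (SE 0.42, edgeR adjusted p = 0.0164). The summed B cell markers ranged from 72.6 to 409 CPM in positive and from 68.7 to 608 CPM in negative cells, and their part in the level of Cd22 was not tested.

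Some alternatives of the stage comparisons called 1 or 2 genes, which were named after their values were seen. The calprotectin subunits S100a8 (6.90) and S100a9 (7.83) were called higher at progression in Mgl2-positive cells without D19 B, as log2 fold changes. Both are abundant in neutrophils, and the summed neutrophil markers ranged from 0 to 955 CPM in positive and from 3.12 to 686 CPM in negative cells, highest in D9 A and in D25 B. The matrix gene Dcn, decorin, had an interaction of -7.65 without D5 B, and the summed stellate cell and fibroblast markers ranged from 0 to 467 CPM in positive cells, highest in D5 A, and from 0 to 636 CPM in negative cells. The part of neutrophils and fibroblasts in these values was not tested.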
